A study of Mus musculus with 4 samples.

Results

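The peaks described here are what a Tet1 antibody recovered from Tet1 knockout (KO) cells. Tet1 is a dioxygenase that oxidises 5-methylcytosine in DNA and carries a CXXC domain that binds CpG-rich sequence. Chromatin immunoprecipitation followed by sequencing (ChIP-seq) reads DNA that an antibody pulls down, and an input library is the same chromatin sequenced without antibody. ChIP from knockout cells is commonly used as a control for signal that does not depend on the target protein. Whether any Tet1 protein remained in these cells was not tested. The KO list held 247 peaks, all of which are counted here, of 620 peaks in both lists of the series. The other 373 peaks came from wild-type (WT) cells.

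Spermatogonia are testis germ cells that divide by mitosis. They were sorted from strain 129 mice aged 3 months, WT or Tet1 knockout, with 20000 cells in each immunoprecipitation per the labels. Each genotype had 1 Tet1 ChIP and 1 input library, so no value below has a replicate check, and intervals cover counting error only. The labels name neither the knockout allele nor the number of mice. A peak list carries no expression values, so neither the cell type nor the loss of Tet1 could be checked against markers, and the Tet1 gene had no KO peak inside it or within 3 kb. The KO ChIP library held 2235818 tags and its input 3739856 after duplicate removal, against 3081692 and 3546238 in WT. Positions are those of mm10.

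Each peak has a pileup, the number of ChIP tags stacked at its summit, and a fold enrichment, (pileup + 1) divided by (local background + 1), both as the authors' peak caller gave them. The local background is the input at that place scaled to the ChIP depth, and was recovered from these values. It was never below 0.248 tags, the genome-wide value that the peak caller computed with the human effective genome size. With the mouse size that value would be higher, and the folds of peaks standing on it lower. Peaks on chromosomes with a background under 10 times that value are called low-input (132 peaks), and the others dense-input (66 peaks). With the mouse genome size 135 peaks would be low-input. A further 49 peaks lay on mitochondrial DNA or unplaced contigs.

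**Figure D1:**
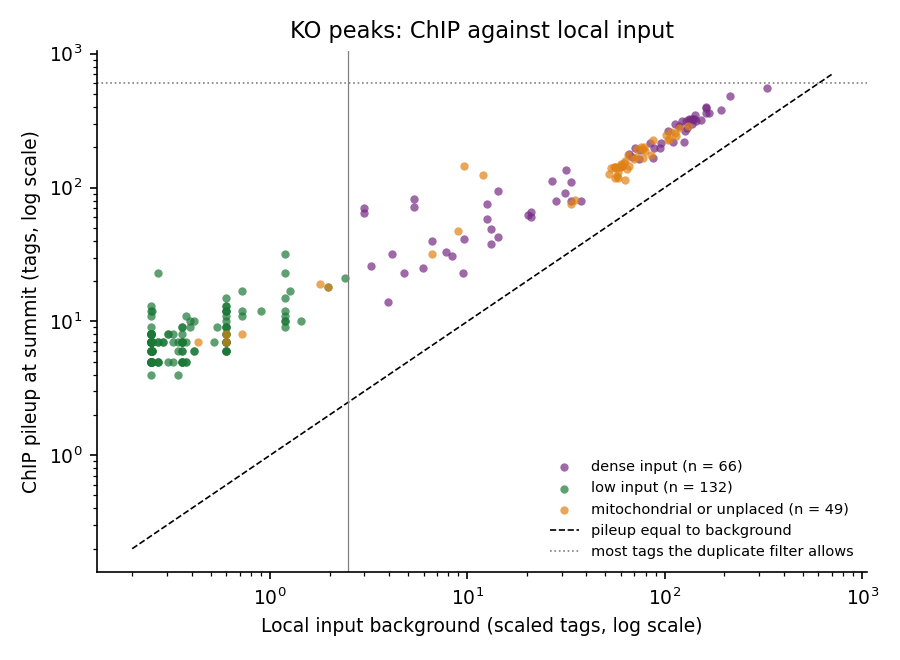
ChIP pileup at the summit against local input background, both in tags on log axes, for the 247 KO peaks by class. The vertical line is 10 times the genome-wide background, the dashed line is equality and the dotted line at 600 tags is the most that the duplicate filter allows. Low-input peaks sit at 4 to 32 tags, and dense-input peaks rise with the input up to 557 tags.

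The classes were cut on a background computed from pileup and fold, so a contrast in these values partly follows from the cut. Low-input peaks had a median pileup of 7 tags (lowest 4, highest 32) and a median fold of 6.13. Dense-input peaks had a median of 168 tags (14 to 557) and a median fold of 2.53. Of the 132 low-input peaks, 40 stood on the genome-wide background, 23 on the equivalent of 1 input tag at the summit and 8 on that of 2 input tags. The other 61 had other backgrounds, and the median over all 132 was that of 0.57 input tags (highest 4). A low-input peak was thus typically a stack of a few ChIP tags over little input, the latter by the definition of the class. At a given background its fold takes steps set by whole tags. An 8-tag peak at the genome-wide background has a fold of 7.21, and a 5-tag peak one of 4.81. The width of 50 low-input peaks was 300 bp, the length to which tags were extended. At a q of at most 0.05, 124 low-input and 64 dense-input peaks were left.

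The limit between the classes fell in a sparse range. The low-input peak closest to it lay where Cmss1 and Filip1l overlap, with 21 tags on a background of 9.63 times the genome-wide value. Next to it were 7.94 times at Gm40371 and 5.78 times at an unannotated site of chromosome 6. Just outside were peaks of 65 and 70 tags at 12.03 times and one of 26 tags at 13 times, all in the same stretch of chromosome 6.

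Among the low-input peaks, the leading group lay at small RNA genes. RNA polymerase III makes transfer RNAs (tRNAs), which carry amino acids to the ribosome, and 7SK, 7SL and Y RNAs. Most spliceosomal small nuclear RNAs (snRNAs) are made by RNA polymerase II. These genes are short, and those in use are heavily transcribed and open, neither of which was measured here. Many occur in near-identical copies, so placing reads among copies is uncertain. Of 132 low-input summits, 52 (39.4%, 95% interval 31.0 to 48.3) lay within 500 bp of such a gene, while 0.0588% of the annotated chromosome span does. These 52 peaks had 5 to 13 tags (median 8) and a median fold of 6.41. The summit lay inside the small RNA gene in 13 cases and within 100 bp of it in 45, and the farthest was 157 bp away.

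**Figure D2:**
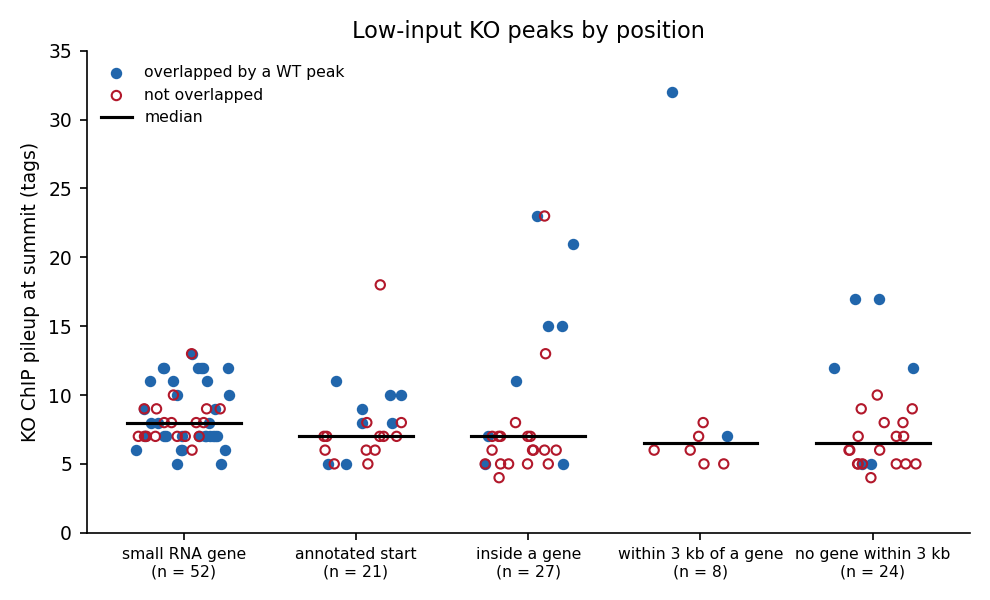
KO ChIP pileup in tags for the 132 low-input peaks, grouped by where the summit lies; each point is a peak, filled where a WT peak overlaps it, and the bar is the group's median. Filled points make up 34 of the 52 peaks at small RNA genes, and the 5 groups have medians between 6.5 and 8 tags.

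Transfer RNA genes made up most of this group. A low-input KO summit lay within 500 bp of 58 of the 408 annotated tRNA genes (14.2%), against 0.288% of all 49943 annotated genes by the same rule. The 58 genes sat at 40 peaks, because 16 of the peaks had more than 1 small RNA gene in reach, and counts of genes therefore exceed counts of sites. They covered 18 of the 20 isotypes, with none for asparagine or histidine. The share was highest for tyrosine (4 of 10) and methionine (5 of 16) and low for cysteine (2 of 56). Such shares are extremes of 20 small counts, and the tyrosine genes n-TYgta1 and n-TYgta2 shared 1 peak. None of the 53 tRNA genes of chromosome 6 had a KO summit.

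The highest tRNA peak by fold lay at the phenylalanine gene n-TFgaa4 on chromosome 13 (21161131 to 21161622), with 13 tags (counting interval 6.92 to 22.2) and a fold of 11.2. A WT peak of 10 tags overlapped it. The threonine and proline genes n-TTtgt3 and n-TPagg4 on chromosome 14 had 11 tags (fold 9.61) and 16 in WT, and the valine gene n-TVcac7 on chromosome 11, beside Trim41, had 13 tags (fold 8.76) and no WT peak. The glutamate gene n-TEttc1 had 9 tags (fold 8.01) and 6 in WT, and the arginine gene n-TRccg1 had 12 tags (fold 7.57) and 13 in WT. Folds of 7.36 and 7.21 belonged to n-TRtct1 with n-TVtac1 (9 tags), n-TMcat9 and n-TTagt6 (8 tags each), all without a WT peak, and to n-TIaat4 with n-TTagt7 and n-TDgtc14 with n-TAtgc5 (8 tags each), where WT had 10 and 8 tags. Among the named tRNA sites with a WT peak, KO tags were higher in some, WT tags in others and equal at n-TDgtc14. The depth-corrected KO/WT ratio at n-TEttc1 was 2.07, with a wide interval of 0.657 to 7.06. Where a WT peak is missing, the WT pileup is not known.

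The tRNA peaks came in clusters. On chromosome 13 between 21161131 and 23530518, 11 peaks of 6 to 13 tags lay at tRNA genes in the region that also holds histone genes, and 4 of them were overlapped by WT peaks. Another of the 11, at n-TMcat9, lay within 1000 bp of the start of the histone gene H4c8 and had no WT peak. On chromosome 11, 7 peaks of 7 to 11 tags filled 69036954 to 69125440, around Hes7, Aloxe3, Ctc1 and Borcs6, and 4 were overlapped. On chromosome 14, 3 peaks between 51063610 and 51088752 had 7 to 11 tags, and all were overlapped.

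The remaining tRNA genes within 500 bp of a low-input summit are named here by isotype. The alanine genes were n-TAagc14, n-TAagc15, n-TAcgc8 and n-TAtgc9, and the arginine gene was n-TRtcg1. For aspartate, cysteine, glutamate and glutamine they were n-TDgtc9, n-TCgca54, n-TCgca55, n-TEctc13, n-TQctg6 and n-TQctg9. The glycine genes were n-TGgcc4, n-TGgcc5, n-TGgcc7, n-TGgcc8, n-TGtcc6 and n-TGtcc7, and the isoleucine genes n-TIaat5 and n-TIaat11. The leucine genes were n-TLaag8, n-TLcag3, n-TLcag4, n-TLcag5, n-TLcag10, n-TLtag1 and n-TLtag3, and the lysine genes n-TKctt10, n-TKctt17 and n-TKctt27. For methionine and serine they were n-TMcat5, n-TMcat6, n-TMcat7, n-TMcat11, n-TSaga4, n-TSgct3 and n-TStga1. For threonine, tryptophan and tyrosine they were n-TTagt4, n-TTtgt1, n-TWcca6, n-TWcca7, n-TYgta1, n-TYgta2, n-TYgta7 and n-TYgta9. The q-values at n-TCgca55 (0.059), n-TQctg9 (0.059) and n-TYgta9 with n-TAagc15 (0.053) were above 0.05. A further 21 tRNA genes lay between 500 bp and 3 kb from a summit. These were n-TAagc13, n-TDgtc4, n-TEctc11, n-TGgcc6, n-TGtcc2, n-THgtg8, n-TKctt16, n-TKctt30, n-TLtaa4, n-TPcgg3, n-TPtgg5, n-TQttg4, n-TQttg5, n-TRacg3, n-TRacg4, n-TRtct4, n-TSaga7, n-TTagt8, n-TVtac2, n-TWcca3 and n-TYgta10.

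Small nuclear RNA genes were nearest to 9 peaks of 6 to 12 tags with a median fold of 7.79, and WT peaks overlapped 7 of them. By gene, 10 of the 1004 genes that RefSeq types as snRNA (0.996%, Rn7sk among them) had a low-input summit within 500 bp, against 0.288% of all genes. By peak, snRNA genes were within 500 bp of 6.82% of low-input summits, against 0.0413% of the annotated span. A pair inside the noncoding gene Gm35239 on chromosome 12, at LOC115488100 and Gm23296, had 12 tags each (folds 10.4 and 10.4), with 15 and 13 tags in WT. Another pair on chromosome 11, at Gm24950 and Gm23971, also had 12 tags each (fold 8.14), with 16 and 8 in WT. Rnu1a1, a U1 gene inside Tex14, had 10 tags (fold 6.88) and 16 in WT. Gm25679 (10 tags), Gm26444 (8) and Gm22634 (6) lay within 20 kb of each other on chromosome 12, and Gm25064 on chromosome 9 had 10 tags; Gm26444 and Gm25064 had no WT peak.

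A further 3 peaks lay at genes of other RNA polymerase III products. Rn7sk encodes 7SK, the RNA of a particle that holds back transcription elongation, and had 11 tags (fold 7.51) and 18 in WT, with the summit 52 bp outside the gene. Rny1, a Y RNA gene, had 9 tags (fold 7.36) and no WT peak. Rn7s1, a 7SL gene whose product helps to target new proteins to membranes, lies beside the ribosomal protein gene Rps29 and had 7 tags (fold 5.01) and 11 in WT. None of the 63 rRNA genes and none of the 1340 snoRNA genes had a low-input KO summit within 500 bp. At the 0.288% of all genes, a group as small as the rRNA genes would seldom be hit, so its count of 0 gives no information.

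The second feature was annotated gene starts. RefSeq starts with strand were available for 27025 protein-coding and noncoding genes. A low-input summit lay within 1000 bp of a start for 28 of 132 peaks (21.2%, 14.6 to 29.2), while 2.06% of the annotated span is that near a start. By gene, 34 of 27025 had such a summit (0.126%). Of the 28 nearest starts, 17 had the summit upstream and 11 downstream. With the small RNA peaks set aside, 21 peaks remained with 5 to 18 tags, and 8 of the 21 (38.1%, 18.1 to 61.6) were overlapped by a WT peak.

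**Figure D3:**
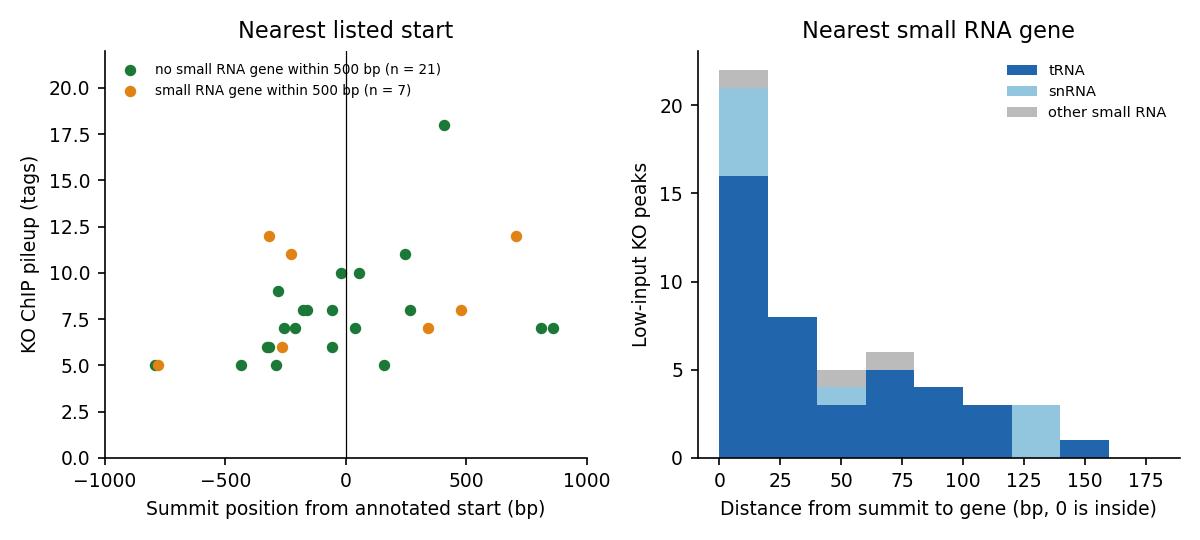
Left, KO pileup in tags against the summit's position from the nearest listed gene start in bp, negative being upstream, for the 28 low-input peaks within 1000 bp of a start. Right, number of low-input peaks by distance in bp from the summit to the nearest small RNA gene, stacked by kind, for 52 peaks. Upstream summits number 17 and downstream 11, and 45 of the 52 small RNA summits lie within 100 bp.

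In 8 RefSeq promoter windows the low-input summit lay in the 250 bases before the start. The 6 shown here are those of a polymerase subunit, a meiotic gene, a divergent gene pair, the start peak with the largest WT pileup, a ribosomal protein gene and the flank of 7SK. Each is read 5′ to 3′ on the gene's strand (RefSeq, GRCm38.p6) and ends at the base before the start. Capitals mark matches on either strand to a GC box (GGGCGG), the CCAAT box, a TATA box (TATAAA), an ETS motif (CCGGAAG) or the palindromic core of the NRF1 motif (CGCATGCG).
Polr2i, chr7:30231824-30232073, plus strand: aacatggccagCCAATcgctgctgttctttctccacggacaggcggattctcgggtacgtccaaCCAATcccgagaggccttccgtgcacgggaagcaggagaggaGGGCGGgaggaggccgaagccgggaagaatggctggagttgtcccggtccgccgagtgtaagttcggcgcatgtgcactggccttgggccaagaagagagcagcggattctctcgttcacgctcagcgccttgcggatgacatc
Syce1, chr7:140787855-140788104, minus strand: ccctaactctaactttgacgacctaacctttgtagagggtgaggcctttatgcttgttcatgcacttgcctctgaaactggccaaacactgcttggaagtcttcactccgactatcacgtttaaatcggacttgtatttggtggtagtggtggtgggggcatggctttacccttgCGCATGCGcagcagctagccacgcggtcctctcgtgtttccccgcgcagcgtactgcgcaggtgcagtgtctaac
Pet100, chr8:3621301-3621550, plus strand: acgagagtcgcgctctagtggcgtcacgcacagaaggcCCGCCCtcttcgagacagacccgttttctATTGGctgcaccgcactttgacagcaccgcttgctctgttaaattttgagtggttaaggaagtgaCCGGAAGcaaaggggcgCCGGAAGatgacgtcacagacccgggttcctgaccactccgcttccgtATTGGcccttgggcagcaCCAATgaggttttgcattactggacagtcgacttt
Dolpp1, chr2:30392004-30392253, plus strand: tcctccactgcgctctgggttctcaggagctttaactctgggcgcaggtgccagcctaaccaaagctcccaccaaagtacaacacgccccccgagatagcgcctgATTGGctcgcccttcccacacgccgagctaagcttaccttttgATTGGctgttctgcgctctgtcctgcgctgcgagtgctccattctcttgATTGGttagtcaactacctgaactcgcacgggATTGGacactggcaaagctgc
Rpl4, chr9:64173137-64173386, plus strand: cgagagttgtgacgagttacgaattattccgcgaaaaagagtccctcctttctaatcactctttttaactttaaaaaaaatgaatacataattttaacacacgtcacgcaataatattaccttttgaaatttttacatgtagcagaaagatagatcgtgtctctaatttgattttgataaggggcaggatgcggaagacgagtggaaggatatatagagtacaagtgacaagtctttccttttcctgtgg
C920006O11Rik, chr9:78175664-78175913, plus strand, the stretch between this gene and Rn7sk: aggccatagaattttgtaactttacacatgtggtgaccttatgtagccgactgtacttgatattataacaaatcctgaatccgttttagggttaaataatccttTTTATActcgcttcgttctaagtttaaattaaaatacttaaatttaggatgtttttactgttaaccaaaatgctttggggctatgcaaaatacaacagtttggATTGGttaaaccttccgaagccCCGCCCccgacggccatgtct

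The 8 windows held 8 to 21 CpG dinucleotides (median 13), against a median of 6 over all 32851 windows of the same length. Their median GC content was 54.4% against 52.4%. A CCAAT match was present in 6 of 8, against 33.9% of all windows, and a GC box in 4 of 8, against 32.7%. TATAAA was found in 2 of 8 against 12.4%, the ETS motif in 2 of 8 against 6.91%, and the NRF1 core in 1 of 8 against 1.55%. An E-box (CACGTG, 6.02% of windows) and an octamer (ATGCAAAT, 1.60%) were found in none. No match in these 8 windows overlapped another. Pet100 and Xab2 start head to head, so their windows are nearly the same sequence. They share the CCAAT, GC box and ETS matches and the CpG dinucleotides, which are counted for both, so the 8 windows are not independent. A match describes letters, not a bound site, and no match says only that those letters are not in the window.

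At these starts the pileups were as follows. Polr2i encodes an RNA polymerase II subunit; its summit lay 18 bp upstream, with 10 tags in KO (fold 5.01) and 15 in WT. Dolpp1, a dolichyl diphosphate phosphatase gene, had 8 tags (fold 7.21) with the summit 159 bp upstream and 22 in WT, a depth-corrected KO/WT ratio of 0.501 (0.193 to 1.17). Pet100, a gene for assembly of respiratory complex IV, and Xab2, a splicing and repair gene, shared a peak of 8 tags (fold 6.90). Gpr89, a Golgi ion channel gene, had 8 tags (fold 7.21), Rpl4 had 7 (fold 6.39) and Syce1, a synaptonemal complex gene of meiosis, had 6 (fold 5.15). Those 4 peaks had no WT partner, and at WT depth their pileups would correspond to between 8.27 and 11.03 tags.

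Other starts carried peaks of similar height. Ubb, which encodes polyubiquitin, had 11 tags (fold 8.72) 244 bp past its start and 10 in WT, and a second peak of 7 tags inside the gene. Snrnp70, encoding a U1 snRNP protein, had 10 tags (fold 7.89) 55 bp past its start and 17 in WT. The divergent starts of 2700049A03Rik and Timm9, a mitochondrial import gene, had 8 tags with 7 in WT, and Rmnd5a, a ubiquitin ligase subunit gene, had 9 tags in each list. Ube2c, a mitotic ubiquitin-conjugating enzyme gene, and Magohb, an exon junction complex gene, had 5 tags each and 10 in WT. Starts with a KO peak alone were those of Ccng2, Bud23 and Zbtb32 (7 tags each), Nudt9 and Polr2e (6 each), and Mus81 and Edrf1 (5 each). The noncoding genes Gm40371 (18 tags) and Gm34755 (7 tags) completed the list. In the small RNA group, summits also lay within 1000 bp of the starts of Ilf2, Rab11a, Agbl5, H4c8, Gm35239, Gm35795, Gm11335, BB557941, 4930555B11Rik and C920006O11Rik.

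Inside genes, and away from listed starts and small RNA genes, lay 27 low-input peaks, 15 of them at the minimum width. The highest fold of the KO list was here, in Abcc9 (a potassium channel regulator gene; chromosome 6, 142662189 to 142662874), with 23 tags (counting interval 14.6 to 34.5), a fold of 18.9 and 28 tags in WT. Ldha, a glycolysis gene that acts on pyruvate (chromosome 7, 46852682 to 46853045), also had 23 tags (fold 10.9), on a background of 4.81 times the genome-wide value. Its pileup would correspond to 31.7 tags at WT depth, and no WT peak was listed there. Gpc6, a glypican gene, had 15 tags (fold 10.01) and 18 in WT. Ppp1r9a, the gene of the actin-binding protein neurabin, had 13 tags (fold 8.76) and no WT peak. Atp6v0a2, a proton pump subunit gene, had 15 tags (fold 7.29) and 23 in WT, and the Cmss1 and Filip1l peak had 21 and 17.

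The other peaks inside genes were low. Smyd3, a lysine methyltransferase gene, held peaks of 11 and 7 tags, both overlapped by a single WT peak of 13 tags. Gnpat, Asic2 with Gm51909, Ppp2r5c and the pseudogene Gm2033 had 7 tags each, and Gm34755 had 8. Stx18, Cnot1, Gm33272 and the overlapping genes Eif2d and Rassf5 had 6 tags each. Catspere2, Wapl, Zfp113, 4930435F18Rik, Ide, Ddx5 and Dnajb6 had 5 each, and Ankrd11 had 4. Of these, Zfp113 and Ddx5, an RNA helicase gene, were overlapped by WT peaks of 8 and 6 tags. The q-values at Ankrd11 (0.18) and at Eif2d with Rassf5 (0.059) were above 0.05.

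A further 8 peaks lay outside genes but within 3 kb of them. The highest, with 32 tags (fold 15.03), lay 803 bp from Gm52862 on chromosome 6 in the stretch of dense-input peaks described below, with 25 tags in WT. Thoc1, an mRNA export gene, had 7 tags and 10 in WT. Col1a1 (7 tags), Fam204a and Ints8 (6 each), Rnf17, a germ cell Tudor protein gene (5), and 1700065J11Rik (8) had no WT peak. In all, 200 of the 49943 annotated genes (0.400%) held or lay within 3 kb of a low-input summit, 76 of them protein-coding (0.347% of 21887). For peaks, 108 of 132 (81.8%, 74.2 to 88.0) were that close to a gene, against 52.5% of the annotated span, and 58 (43.9%) lay inside one, against 46.1%.

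Genes in reach of these summits but not named above are listed here, and some lay nearer to the summit than the gene named above. The summit at Polr2i lay inside Tbcb, that at n-TKctt10 lay inside Trim7, and that at Rpl4 was closer to Zwilch. The protein-coding ones were Ccdc115, Trim7, Rnase4, Ang, Psma3, Arl5c, Plxdc1, Polg2, Pcp2, Dnajc30, Zwilch, Gm40369, Tbcb, Ovol3, Cfl1 and Dnttip1. Noncoding ones were 1700031P21Rik, Gm52088, Gm39424, Gm31151, Gm40833, C230035I16Rik, Gm39011, 9130213A22Rik, the microRNA genes Mir5103, Mir3064 and Mir5619, and the snoRNA genes Gm26493, Gm23344, Snord16a and Gm22571. Pseudogenes were Gm2395, Rpl31-ps7, Gm2412 and Gm29799.

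No gene lay within 3 kb of 24 low-input summits, 6 of which were overlapped by a WT peak. Chromosome Y held 11 of the 24. Between 4046440 and 4141439 of that chromosome there were 9 peaks of 5 to 8 tags, and a WT peak overlapped 1. Nearer its end, 3 peaks of 6 to 17 tags lay between 90768812 and 90797266, 2 of them without a gene. On chromosome 6, 5 peaks of 5 to 17 tags lay between 128760645 and 128839178, 3 of them without a gene, and the highest had 15 tags in WT. Peaks in such clusters are not independent sites.

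Hand-written lists of germ cell, other testis cell, housekeeping, imprinted and DNA methylation genes were also looked up. They were chosen with earlier results of these data known, so their share of hits does not measure an excess. Of 162 annotated genes in 11 lists, 5 (3.09%) held or lay within 3 kb of a summit, against 0.400% of all genes. In the housekeeping list these were Ubb and Rpl4 (2 of 20). In the meiosis list they were Syce1 and Tex14 (2 of 27), the latter through Rnu1a1 alone. The list of peritubular, vascular and blood cells gave Col1a1 (1 of 10), a collagen gene of stromal cells, with the summit 1410 bp away. The 8 other lists had none, among them those of undifferentiated spermatogonia (19 genes), differentiating spermatogonia (12), germline genome defence (18), DNA methylation machinery (13) and imprinted genes (16). Sertoli, Leydig and spermatid lists had 10, 8 and 10 genes. H4c8 was the only 1 of 76 histone genes in reach. At 0.400%, a list of 20 genes is seldom hit, so an empty list gives no information on these genes.

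Overlap with the WT list grew with the pileup. Of 132 low-input KO peaks, 58 (43.9%, 35.3 to 52.8) were overlapped by at least 1 bp. The share was 27.9% (15.3 to 43.7) for the 43 peaks of 4 to 6 tags, 36.2% (23.99 to 49.88) for the 58 of 7 to 9 tags and 80.6% (62.5 to 92.5) for the 31 of 10 or more. By position it was 65.4% at small RNA genes and 30% elsewhere, where the median pileup was 7 tags against 8. Among the 30 low-input peaks of highest fold, 21 were overlapped and 18 lay at small RNA genes.

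Where a KO peak and a WT peak overlapped 1 to 1, the pileups were close after depth correction. Over 55 low-input pairs there were 543 KO and 682 WT tags, a KO/WT ratio of 1.10 (0.979 to 1.23) scaled by the ChIP tags of each library. The ratio was 1.12 (0.921 to 1.36) over 24 tRNA pairs, 1.06 (0.774 to 1.45) over 7 snRNA pairs and 0.910 (0.656 to 1.25) over 8 pairs at gene starts. Single ratios ran from 0.501 to 2.36, and 1 interval lay off 1, that of the peak beside Gm52862 (1.76, 1.013 to 3.105). Both lists had to call a peak for it to be counted, so these ratios do not cover sites listed in KO alone, and 2 libraries do not compare the genotypes.

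**Figure D4:**
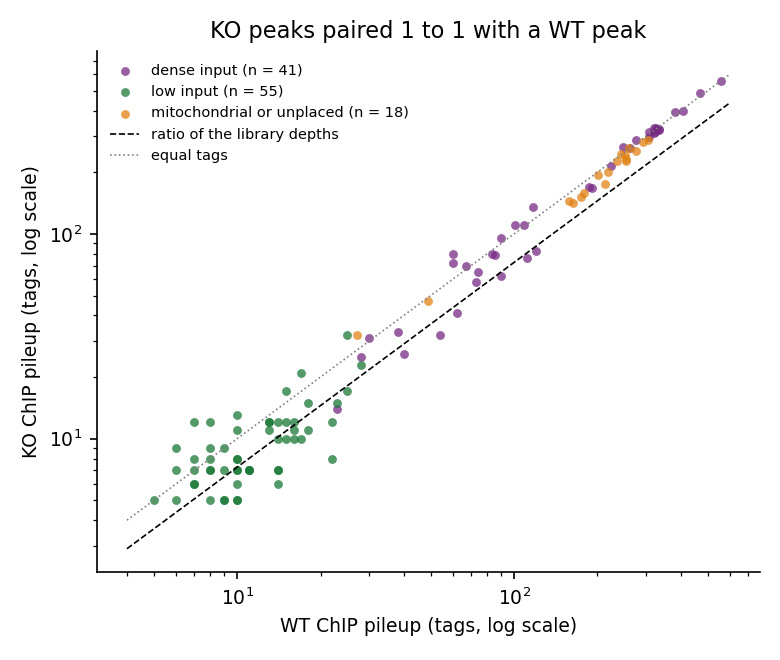
KO against WT ChIP pileup in tags, on log axes, for KO peaks paired 1 to 1 with a WT peak, by class (55 low-input, 41 dense-input, 18 on unplaced contigs). No mitochondrial peak was paired. The dashed line is the ratio of library depths and the dotted line equal tags. Dense peaks of at least 100 tags lie near the line of equal tags, and low-input peaks scatter about the depth line.

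Dense-input peaks are places where the input itself was piled up, as happens over repeats present in more copies than the assembly shows. The start of chromosome 9 (3000174 to 3038241) held 27 of the 66, with a median of 288 tags and a median fold of 2.36. Contig JH584304 held 38 more peaks, with a median of 161.5 tags and a fold of 2.37. Outside those blocks the highest pileups were on chromosome 2 near 98666201 (557, 363 and 313 tags in 3 peaks) and on chromosome 14 near 19418576 (398, 360 and 278 tags). Further ones were at Gm33838 on chromosome 9 (379), near the start of chromosome 12 at 3109796 (220) and at Chl1 on chromosome 6 (219). Those of 379, 363, 278, 220 and 219 tags had no WT peak. All of these peaks outside the blocks had folds of 1.68 to 2.54. Next came a peak on chromosome 7 at 145340949, with 135 tags, a fold of 4.16 and 117 tags in WT. Of the 66 dense-input peaks, 44 (66.7%, 54.0 to 77.8) were overlapped by a WT peak.

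A few dense-input peaks had high folds. On chromosome 6, between 47739817 and 47763621 at Gm52861, Gm40363 and Gm52862, 5 peaks of 26 to 72 tags had folds of 6.39 to 17.8 on 12.03 to 21.7 times the genome-wide input, and WT peaks overlapped all 5. The peak of 32 tags beside Gm52862, counted as low-input above, stands in the same stretch. The pseudogenes Gm10925 and Gm10222 on chromosome 1 had 82 tags (fold 13.01), and mitochondrial DNA itself had peaks of 146 and 125 tags (folds 13.9 and 9.72). At an rRNA gene copy on chromosome 17, Rn18s-rs5 with AY036118, 3 peaks had 23 to 66 tags and folds of 2.28 to 3.06. Tmem267 on chromosome 13 had 4 peaks of 14 to 76 tags, and single dense sites lay in or near Wls, Flt1, Gm36876, Lars2 with Gm40586, and Cldn34d.

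Dense-input pairs with at least 100 KO tags carried about the same number of ChIP tags in both libraries, 6736 KO and 6751 WT. The 18 dense-input pairs under 100 KO tags had 1021 KO and 1188 WT tags, fewer in KO, as over the low-input pairs. Over all 41 dense-input pairs there were 7757 KO and 7939 WT ChIP tags, and 5243 KO and 5120 WT input tags. The depth-corrected KO/WT ratio of the ChIP was therefore 1.35 (1.31 to 1.39) and that of the input 0.971. The deposited fold was higher in KO in 29 of the 41 pairs. At the start of chromosome 9 the ChIP ratio was 1.37 (1.32 to 1.43), above 1 in 17 of 17 pairs, from 5112 KO and 5135 WT tags. There the input ratio was 0.951, and the deposited fold was higher in KO in 17 of 17 pairs (median 2.36 against 1.64 in WT). Without that block the ChIP ratio was 1.30 (1.23 to 1.37) and the input ratio 1.02, and the deposited fold was higher in KO in 12 of 24 pairs. For the 18 pairs under 100 KO tags the ChIP ratio, 1.18 (1.09 to 1.29), was no higher than the input ratio of 1.19. In those pairs the median fold was 4.16 in KO and 4.43 in WT, and KO was higher in 7 of 18. Of the 23 pairs with at least 100 KO tags, 22 had the higher fold in KO. Since 1 tag was kept per position and strand, no pileup can exceed 600 tags in KO or 598 in WT, and the highest pileups, 557 and 559, were 92.8% and 93.5% of this. Pileups above 300 tags were reached by 17 KO peaks. The part of this ceiling in the ratios was not tested.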

How the data were processed

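The authors deposited 1 peak list per genotype. Per the file headers, MACS 2.1.1.20160309 called peaks for each genotype separately, Tet1 ChIP against input, with a q cutoff of 0.5, the human effective genome size, 1 tag kept per position and strand, and tags extended to 300 bp (KO) or 299 bp (WT). Nothing was pooled. Redundant tags were 25% of the KO ChIP and 18% of its input. The KO input was scaled by 0.598. Build mm10 and the tools MACS2, deepTools, Trim Galore, SAMtools and Bowtie2 are named in the submitters' processing notes; their settings are not given in the sources used here. The deposited pileup is a signal in tags, the deposited fold enrichment is a ratio, and each peak's deposited −log10 q and −log10 p come from the peak caller.

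The local background was recovered as (pileup + 1)/fold − 1. The Poisson p recomputed from it was within 5% of the deposited value on the log10 scale for 247 of 247 KO peaks. The recovery and the intervals were tested on simulated data. Genes came from RefSeq (GRCm38.p6, 49943 on chromosomes), without strand; starts with strand and promoter sequences came from the RefSeq promoter table for 27025 genes. A start lies 250 bases into a window, and only the bases before it are printed. No genome sequence was used here, and tRNA and snRNA sequences are not printed.

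Intervals (95%) are Clopper-Pearson for shares, exact Poisson for pileups and exact conditional for KO/WT ratios. With 1 library per group no test between conditions was made. Genes within 3 kb of a low-input summit are named, except for an item that is not reported here, with values for the 30 low-input peaks of highest fold, members of the gene lists and the 10 highest dense-input pileups. Members, classes, lists, motifs and the limit of 10 times were chosen with earlier results of these data known. Python 3.11.15, pandas 2.3.3 and scipy 1.17.1 were used.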

Additional observations from a re-analysis of the deposited data

How the results depend on the processing

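Of 39 alternative values, 34 stayed within the interval of the reported value or within 1.5 times of a count. With a −log10 q of at least 5, the 132 low-input peaks fell to 42. The share of low-input peaks in reach of a gene was 43.9% when only gene interiors counted and 51.5% with protein-coding genes alone. The share at small RNA genes was 29.8% without the tRNA clusters of chromosomes 11 and 13, and the share of dense-input peaks with a WT peak was 80.3% with peaks within 1000 bp counted. The mouse genome size, the removal of those clusters, of chromosome Y and of the chromosome 6 array, and the 500 bp start window were chosen after seeing the data. No paired analysis was possible because each genotype has 1 ChIP and 1 input library. At 4 to 9 tags a peak listed in 1 library and not in the other does not show a difference, and sites without a listed peak have no value in these files.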

Other observations

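Contigs held 6 peaks below the dense-input limit, on GL456370 and GL456216, with 7 to 19 tags and folds of 5.01 to 7.16. WT peaks overlapped 0 of the 6 (0%, interval 0 to 45.9). That interval includes the 40.8% of all 49 peaks on mitochondrial DNA or contigs, so these 6 do not show a lower share. Low-input KO peaks were unevenly spread over the chromosomes. Chromosome 11 had 21, or 17.2 per 100 Mb of annotated span, 15 of them at small RNA genes, and chromosome Y had 12, or 13.2 per 100 Mb, none at a small RNA gene. Chromosomes 15, 17 and X had none.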
